A study of Mus musculus with 12 samples.

Results

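Population B of mouse naive CD4 T cells, with intermediate Nur77-GFP and surface Ly6C, was compared with population A, with low Nur77-GFP and surface Ly6C. The comparison uses the 6 RNA-seq libraries whose labels name population A or population B, out of 12 in the series. Each of 3 untreated mice gave all 4 populations by flow sorting of spleen and lymph node cells. The remaining 6 libraries hold Ly6C-negative cells, population C with intermediate GFP and population D with high GFP. All mice, whichever population was sorted, were of a C57/BL6 background and carried the Tg(Nr4a1-EGFP)GY139Gsat transgene, which makes EGFP under regulatory sequence of Nr4a1, and the Foxp3tm1Flv mutation, a red fluorescent reporter of Foxp3. All sorted cells were CD4+, negative for Foxp3-RFP and low for CD44, and none received a TCR stimulus. The age of the mice was not given in the sources used here. In the text below, A1 to A3 and B1 to B3 name the libraries labelled A and B by the mouse number on their label.

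Nur77, the product of Nr4a1, is an immediate early transcription factor that T cells make when the T cell receptor (TCR) signals, and the GFP reporter follows its transcription. Naive T cells receive weak TCR signals from self-peptides on MHC without becoming activated, and the reporter grades cells by the strength of that tonic signal. Ly6C is a small surface protein whose level on naive CD4 T cells is known to go down as tonic signalling goes up, and CD5, a receptor that dampens TCR signalling, is known to go up with it.

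The transcript of the cells' own Nr4a1 gene went with the labels in mice 2 and 3 and against them in mouse 1. The transcript of the EGFP transgene was not analysed here. Whether the labels of A1 and B1 are the right way round was not tested, and the sign of every mouse 1 difference given here rests on them. The 250 bases before the start of Nr4a1 (RefSeq, GRCm38.p6, chr15:101266596-101266845, plus strand) are shown because the sorted reporter was placed under regulatory sequence of this gene. Capitals mark letters that match an Egr motif (GCGNGGGCG, here on the minus strand at position -60) or a cyclic AMP response half-site (TGACGC, minus strand, at -234, -214, -70 and -41).
Nr4a1: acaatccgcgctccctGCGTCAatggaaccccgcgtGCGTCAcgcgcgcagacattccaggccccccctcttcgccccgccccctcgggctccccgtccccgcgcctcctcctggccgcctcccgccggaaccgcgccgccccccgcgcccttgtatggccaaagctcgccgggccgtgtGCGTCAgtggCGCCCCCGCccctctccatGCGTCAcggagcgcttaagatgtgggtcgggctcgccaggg
The window is 74.4% G and C. Searched on both strands, the Egr letters occur in 10.4% of the 8135 tested genes with a promoter in the table, and TGACGC in 12.9%.

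Nr4a1 stood at 57.7 RPKM (reads normalised to gene length and library depth) in A1, 26.1 in A2 and 22.9 in A3, and at 36 in B1, 73.3 in B2 and 64.6 in B3. B exceeded A in mice 2 and 3 and was lower than A in mouse 1, so the groups overlapped. The log2 difference over the 3 mice was 0.76 ± 0.37 (SE), with a limma adjusted p of 0.257 across all genes. Without both libraries of mouse 1, an alternative chosen after the data were seen, it was 1.47 ± 0.08 with an adjusted p of 0.000121.

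Ly6c1, 1 of the genes for the sorted Ly6C antigen, was at 63.0, 58.1 and 72.6 RPKM in A1 to A3 and at 50.2, 37.1 and 44.5 in B1 to B3. Every B library was lower than every A library, in cells that were all gated as Ly6C-positive. The difference was -0.55 ± 0.12 (limma adjusted p 0.0443). Of the 50-base words of the longest Ly6c1 coding sequence, 41.3% also occur in transcripts of other genes, so its reads may be shared with its paralogs. Such shares, here and below, are of words in the coding sequence, with the untranslated parts of the gene left out. Of the gate markers that both populations share, Cd4 and Cd44 stood close together and Foxp3 did not. Cd4 lay between 224 and 239 RPKM in all 6 libraries, and Cd44 between 5.92 and 7.4. Foxp3 was at 3.76, 1.15 and 1.53 RPKM in A1 to A3 and at 1.51, 4.00 and 3.88 in B1 to B3, low in all, with A1 on the side of B2 and B3.

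All 11 naive CD4 T cell genes checked, among them Cd3e, Ccr7, Lef1 and Tcf7, had a row in the table, and their summed level ran from 2307 to 2391 RPKM in A and from 2233 to 2338 in B. Some markers of other cells had a row as well. B cell genes (3 of 18 in the table) summed to 7.32 to 14.5 RPKM in A and 12.4 to 27.6 in B. Plasma cell genes (4 of 8) summed to 26.1 to 33.6 and 25.4 to 32.6, and myeloid genes (4 of 14) to 138 to 148 and 133 to 140.0. Most of the myeloid sum was Ctss, at 116 to 124 RPKM in A and 109 to 119 in B. Xbp1 made up most of the plasma cell sum, at 15.8 to 18.5 and 17.1 to 18.2. Which cells these transcripts came from was not tested. Of the CD8 genes only Cd8b1 had a row, at 13.3 to 14.6 RPKM in A and 9.94 to 11.5 in B. The 12 stress and handling genes with a row summed to 1254 to 1591 RPKM in A and 1245 to 1415 in B. Reads in listed genes numbered from 6287130 in A3 to 8855538 in A2. In bulk libraries like these, fewer cells of a type and less RNA per cell cannot be told apart.

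The mouse 1 libraries of both populations stood apart in a further way. Hbb-bs, a beta globin gene, was at 6.98 RPKM in A1 and 14.0 in B1, against 83.0 to 111 RPKM in A2, A3, B2 and B3. The 3 red cell and platelet genes with a row summed to 10.7 RPKM in A1, 23.1 in B1 and 134 to 177 in the other 4 libraries. Among populations C and D the same sum was low in C2 (8.88) and D2 (22.5) and 134 to 156 in C1, C3, D1 and D3. The low libraries thus carried number 1 in A and B and number 2 in C and D, and the part of this in any result was not tested.

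**Figure D1:**
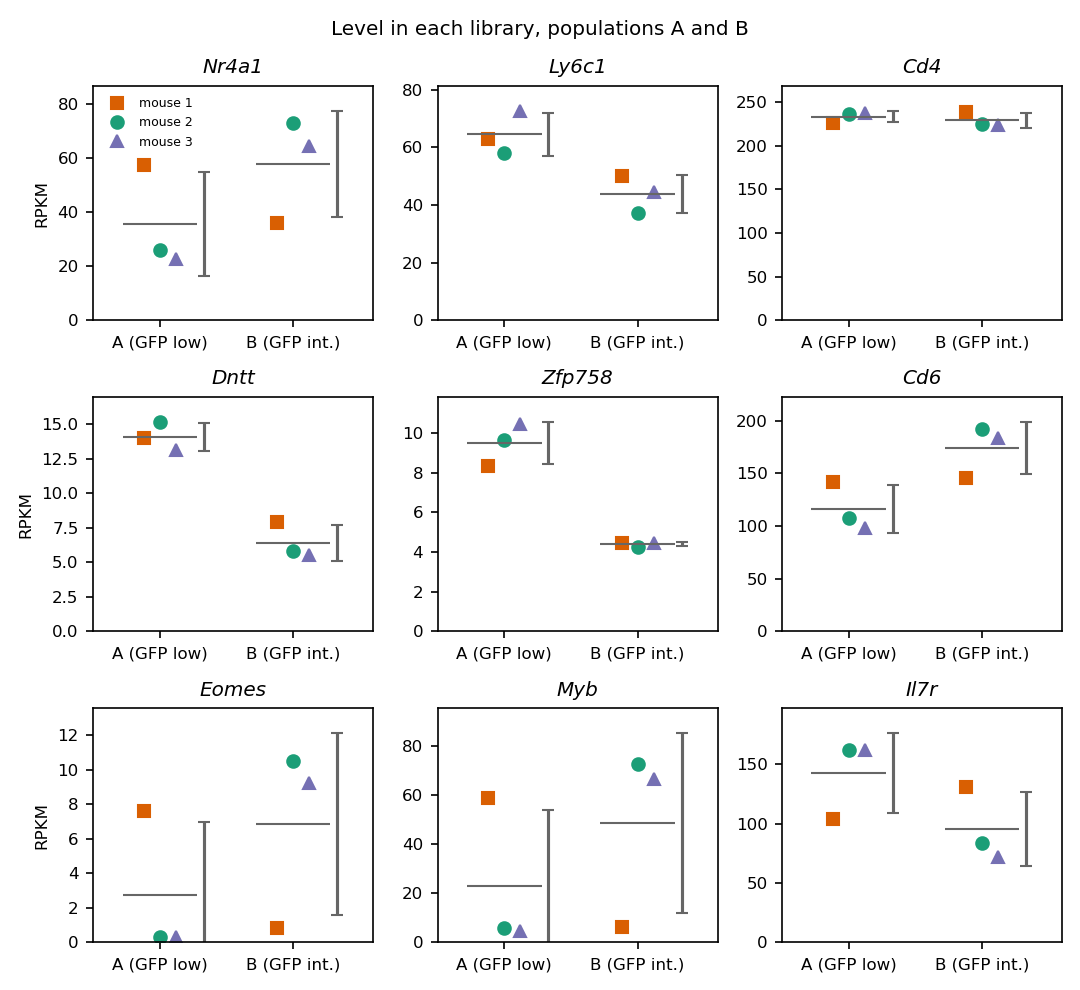
Level of 9 genes in each library (RPKM, linear axis from 0), populations A and B side by side; squares, circles and triangles are mice 1, 2 and 3, the horizontal line is the mean and the bar ± 1 SD of 3 libraries, drawn only down to 0 for Eomes and Myb. Dntt, Zfp758 and Ly6c1 separate A from B in every mouse, while for Nr4a1, Eomes and Myb the square of mouse 1 lies high in A and low in B.

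Of 10013 genes averaging 0.5 RPKM or more, 380 differed between B and A (limma on log2(RPKM + 0.5), trended variance, Benjamini-Hochberg adjusted p under 0.05), which is 3.8% of the genes tested. Lower in B were 319 genes (3.19%) and higher in B were 61 (0.609%). Among the genes that passed, leaving out clone and predicted-gene symbols, the largest fall was in Dntt, the template-independent DNA polymerase that adds nucleotides at V(D)J junctions in developing lymphocytes. Zinc finger genes named Zfp made up 39 of the genes that fell and none of those that rose. The median difference was -0.35 among the genes that fell and 0.27 among those that rose, and 3 of the 319 and 0 of the 61 reached 1 on the log2 scale. All 380 had the same sign in all 3 mice and no overlap between the A and B libraries. Of all genes tested, 29.2% had no overlap in either direction. With the mouse number as a block, no gene passed (smallest adjusted p 0.125, and 0.125 to 0.200 among the 380 genes). At an unadjusted limma p under 0.05 were 1844 genes, against 2380 of 10013 without the block. Counts of list members at that unadjusted p, given below without the block, are to be read beside those 2380 of 10013. Leaving out 1 library gave 0 calls without A2 or without B3 (limma, 1705 and 1733 genes at an unadjusted p under 0.05), 3 without A3, 58 without B2, 288 without A1 and 314 without B1. Differences are on the log2(RPKM + 0.5) scale, on which low genes change less than in RPKM. Except with the block, the p-values measure the spread among the 3 libraries of each group, with the pairing by mouse left out.

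Dntt was at 14.0, 15.2 and 13.2 RPKM in A1 to A3 and at 7.91, 5.79 and 5.52 in B1 to B3. The lowest A library was well over the highest B library, and mouse 1 moved the same way as mice 2 and 3. The gene fell by 1.09 ± 0.13 on the log2 scale (limma adjusted p 0.0117), and the adjusted p lay between 0.0113 and 0.0776 when each library was left out in turn. The 250 bases before its start (RefSeq, GRCm38.p6, chr19:41029025-41029274, plus strand) are shown beside those of Nr4a1 because the genes moved in opposite directions in mice 2 and 3.
Dntt: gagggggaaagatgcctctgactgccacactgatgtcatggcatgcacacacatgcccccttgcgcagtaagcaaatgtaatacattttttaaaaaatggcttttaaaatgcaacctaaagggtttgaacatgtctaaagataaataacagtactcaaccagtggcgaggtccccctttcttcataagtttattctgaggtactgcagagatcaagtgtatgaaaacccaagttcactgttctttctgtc
This window is 41.6% G and C and holds none of the letters searched, which were those of the Egr motif, of the half-site, of the full cyclic AMP response element (TGACGTCA) and of the NR4A motif (AAAGGTCA), on either strand. The NR4A letters occur in 1.11% of all tested genes' windows, in 0 of 49 of the genes that rose and in 1 of 245 of those that fell.

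The Zfp genes, the longest list examined, held the largest number of genes that fell, though not the largest share. Most of these genes encode DNA-binding proteins built from repeated C2H2 zinc fingers, and many such proteins recruit repressors to transposable elements. Of 269 tested genes with a symbol made of Zfp and a number, 39 fell, where 3.19% of all genes did, and 0 rose, and 98 had an unadjusted p under 0.05, 13 of them higher in B. Their median difference was -0.06, against 0.01 over all genes. It was -0.10, -0.08 and -0.08 in mice 1, 2 and 3. Below is 1 finger of each of 3 Zfp genes that fell, with the linkers before and after it in capitals. It is shown because linkers of this kind occur in most genes of the list. The sequences come from GENCODE M21 transcripts (GRCm38): Zfp758 lies on chromosome 17 (22361453 to 22377281, plus strand; coding bases 943 to 1040), Zfp942 on chromosome 17 (21926960 to 21962464, minus strand; coding bases 781 to 878) and Zfp943 on chromosome 17 (21962552 to 22071168, plus strand; coding bases 604 to 701).
Zfp758: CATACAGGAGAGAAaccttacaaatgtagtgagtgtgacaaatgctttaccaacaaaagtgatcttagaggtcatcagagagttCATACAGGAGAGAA
Zfp942: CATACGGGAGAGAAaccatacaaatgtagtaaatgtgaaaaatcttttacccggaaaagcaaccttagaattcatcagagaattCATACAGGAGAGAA
Zfp943: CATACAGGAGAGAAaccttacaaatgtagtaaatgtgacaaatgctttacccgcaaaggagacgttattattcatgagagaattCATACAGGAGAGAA
The 3 stretches are 98 bases long and 35.7% to 38.8% G and C. A linker of this kind, with the letters in capitals on the coding strand and the last base of each of its first 4 codons left free, was found in the coding sequence of 36 of the 39 Zfp genes that fell, of 205 of 268 Zfp genes tested (76.5%) and of 328 of 9535 genes in all (3.44%). The 205 Zfp genes with the linker had a median difference of -0.12 and a median transcript GC content of 42.5%. The 63 without it had a median difference of 0.07 and a GC content of 51.9%, and 3 of them fell.

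Zfp758 was at 8.36, 9.63 and 10.5 RPKM in A1 to A3 and at 4.46, 4.27 and 4.48 in B1 to B3, and fell by 1.02 ± 0.09 (limma adjusted p 0.00843). The B libraries were nearly equal, and the lowest A library stood well over them. Zfp942 was at 17.0, 17.8 and 19 RPKM in A and at 9.40, 9.98 and 8.83 in B, and fell by 0.89 ± 0.07 (limma adjusted p 0.00724). Zfp943 fell by 0.81 and Zfp51 by 0.72, again with no overlap between the groups. The differences of Zfp935 (-0.90), Zfp433 (-0.85) and Zfp994 (-0.82) are less certain for the genes themselves, because all, 92.3% and 30.7% of their respective 50-base words also occur in other genes' transcripts.

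The other genes with the largest falls were of mixed function. Arhgap5, which encodes a GTPase-activating protein, was at 6.13, 7.56 and 8.38 RPKM in A1 to A3 and at 4.65, 3.50 and 3.77 in B1 to B3, and fell by 0.81 ± 0.14 (limma adjusted p 0.0265). Kbtbd3 fell by 0.85 from a mean of 3.01 RPKM. Snora41, a small nucleolar RNA gene that guides RNA modification, fell by 0.88 ± 0.09 (limma adjusted p 0.00843), from 28.1 to 34.9 RPKM in A to 16.0 to 18.5 in B. Of the 14 small nucleolar RNA genes tested, 3 fell and 0 rose, where 3.19% of all genes fell and 0.609% rose, with Snora28 at -0.52 and Snora16a at -0.43 beside it. Such genes lie inside host genes, and how reads in both were counted was not given in the sources used here.

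Several genes of T cell development and signalling fell by less. Themis, which sets the threshold of TCR signalling during thymic selection, was at 28.5, 30.1 and 30.5 RPKM in A1 to A3 and at 24.4, 22.6 and 23 in B1 to B3 (-0.34 ± 0.05, limma adjusted p 0.0217). Cd8b1, the CD8 beta chain, fell by 0.35 ± 0.07 (limma adjusted p 0.0439). Cd8b1 is also the CD8 T cell marker given above, and the part of such cells in its fall was not tested. With Dntt, these were the 3 of 18 thymic development genes that passed, where 3.8% of all genes did, and none of that list rose. Rasa2, a GTPase-activating protein that turns Ras off, fell by 0.25 and was the only 1 of 38 brakes of TCR signalling to pass, a share near the 3.8% of all genes. Sirt1, an NAD-dependent deacetylase, was at 18.6, 18.5 and 19.1 RPKM in A and at 14.2, 13.5 and 13.1 in B (-0.45 ± 0.05, limma adjusted p 0.0120), with a gap between the groups far wider than the spread within either. Suz12, a core subunit of Polycomb repressive complex PRC2, fell by 0.27. Both belong to a list of 30 chromatin regulators in which 2 fell, where 3.19% of all genes did, 0 rose and 11 of 16 genes at an unadjusted p under 0.05 were higher in B.

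Single members fell in other lists. Npm1, the nucleolar chaperone nucleophosmin, was at 384, 370.2 and 381 RPKM in A1 to A3 and at 315, 317 and 314 in B1 to B3 (-0.26 ± 0.04, limma adjusted p 0.0261). The gap between the groups was several times the spread within them, although 78.4% of the 50-base words of Npm1 occur in other transcripts, processed copies included. It was the only 1 of 30 ribosome biogenesis genes to pass, and neither this count nor the other single calls of this paragraph stands apart from the 3.8% of all genes called. Rpl22l1, a paralog of the ribosomal protein gene Rpl22, fell by 0.46, with 82.6% of its words shared, and Ifi203, the only 1 of 34 interferon-stimulated genes to pass, fell by 0.31. Ndufaf4, an assembly factor of respiratory complex I, fell by 0.39 and was the only 1 of 93 oxidative phosphorylation genes to pass. Of 77 mitochondrial ribosomal protein genes, 0 passed (limma, 9 at an unadjusted p under 0.05; 0 by limma-voom).

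The genes that rose did so by smaller steps. Cd79a, a signalling chain of the B cell receptor, was at 4.49, 4.75 and 3.58 RPKM in A1 to A3 and at 8.80, 6.58 and 7.01 in B1 to B3, a rise of 0.74 ± 0.14 (limma adjusted p 0.0332). It is 1 of the B cell markers whose sum is given above, and Cd74, another, was at 3.86, 9.23 and 3.25 RPKM in A and at 18.2, 5.67 and 7.66 in B. A2 was over B2 and B3 for Cd74, so that gene's groups overlapped, and the part of B cell RNA in the rise of Cd79a was not tested. Of 18 B cell markers, 15, among them Cd79b and Ms4a1, have no row and were not analysed here.

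Bcl3, a nuclear member of the IkB family that binds NF-kB p50 and p52, was at 15.9, 14.0 and 15.3 RPKM in A1 to A3 and at 21.7, 19.2 and 21.7 in B1 to B3 (0.46 ± 0.07, limma adjusted p 0.0217). Every mouse gave a rise between 0.43 and 0.49. Il10ra, the ligand-binding chain of the interleukin-10 receptor, was at 6.95, 6.64 and 6.59 RPKM in A and at 8.37, 9.35 and 9.88 in B (0.42 ± 0.08, limma adjusted p 0.0345), and it was the only 1 of 29 cytokine receptor genes to pass, near the 3.8% of all genes. Rhoc, a small GTPase, rose by 0.56, and Ager, a receptor for advanced glycation end products, by 0.49. Pet100, an assembly factor of cytochrome c oxidase, rose by 0.50, Cfp, the complement regulator properdin, by 0.46, and Naa38, a subunit of an N-terminal acetyltransferase, by 0.45. Zdhhc23, of the protein palmitoyltransferase family, rose by 0.61 from a mean of 1.32 RPKM, and Tmem256 by 0.43. Man2c1os, transcribed antisense to Man2c1, read 0.57 higher, but reads of antisense partners cannot be told apart where the library kit keeps no strand.

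Some genes separated the groups without passing the threshold. Ptpn7, a tyrosine phosphatase that restrains MAP kinases, was at 45.2, 43.9 and 39.4 RPKM in A1 to A3 and at 49.4, 52.9 and 52.4 in B1 to B3 (0.27 ± 0.06, limma adjusted p 0.0571). Il27ra, a chain of the interleukin-27 receptor, was at 175, 177 and 175 RPKM in A and at 213, 199 and 189 in B (limma adjusted p 0.0924). Kif23, a kinesin of cell division, was at 2.84, 3.07 and 3.01 RPKM in A and at 2.50, 1.70 and 1.56 in B (limma adjusted p 0.0920). Each B library was on the same side of every A library in these genes, in all 3 mice. Kif23 is 1 of 16 tested proliferation genes, of which 0 passed (limma, 1 at an unadjusted p under 0.05; 1 by limma-voom) and whose medians were -0.32, 0.33 and 0.34 in mice 1, 2 and 3.

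Many genes tied to TCR signal strength, though not all, behaved otherwise: they were higher in B in mice 2 and 3 and lower in B in mouse 1. Of 39 early response genes of TCR signalling, none passed in the 6 libraries (limma, 8 at an unadjusted p under 0.05; 1 by limma-voom on read counts), and the median difference was 0.18 against 0.01 over all genes. Its value was -0.11 in mouse 1, 0.40 in mouse 2 and 0.44 in mouse 3. Of the 39, 20 were higher in B in mice 2 and 3 and lower in mouse 1, as were 19.3% of all genes. Another 8 went the opposite way, as did 13.9% of all genes. In all 3 mice 8 were higher in B, as were 2115 of all 10013 genes. Without the mouse 1 libraries 20 of the 39 rose and 2 fell, where 10.2% of all genes rose and 8.76% fell. Nr4a3, a close relative of Nr4a1, was at 8.60, 3.13 and 2.93 RPKM in A1 to A3 and at 4.17, 9.63 and 9.55 in B1 to B3. A1 thus stood with B2 and B3, and B1 nearest to A2 and A3. Tnfrsf9, the costimulatory receptor 4-1BB, was at 20.4, 1.42 and 1.93 RPKM in A and at 1.43, 26.4 and 20.3 in B, the same arrangement on a wider scale.

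Cd5 and Cd6, related scavenger receptor family members that restrain TCR signalling and whose genes are neighbours on chromosome 19 with 0 protein-coding genes between them, were near even in mouse 1. Cd5 was at 241, 177 and 156 RPKM in A1 to A3 and at 236, 332 and 305 in B1 to B3, and in mouse 1 the libraries differed by -0.03 on the log2 scale. Cd6 was at 141, 108 and 98.2 RPKM in A and at 146, 192 and 183 in B, with B1 just over A1 and no overlap of the groups. Their differences were 0.61 ± 0.17 (limma adjusted p 0.0924) and 0.59 ± 0.15 (limma adjusted p 0.0699). Fitted with all 12 libraries, Cd5 had a limma adjusted p of 0.0486 and Cd6 of 0.0461. With the mouse number as a block these were 0.238 and 0.213. With the trend on GC content and transcript length removed they were 0.360 and 0.230.

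Genes of tolerance and anergy, states in which T cells are held unresponsive, were widely opposed between the mice. Of 23 tested, 0 passed in the 6 libraries, with a median of 0.39. At an unadjusted limma p under 0.05 were 2 of them, where 2380 of all 10013 genes were, and 0 passed by limma-voom. The median was -0.66 in mouse 1, 0.79 in mouse 2 and 0.89 in mouse 3, and 20 of the 23 were higher in B in mice 2 and 3 and lower in mouse 1. Izumo1r, which encodes the folate receptor 4 of anergic and regulatory T cells, was at 53.2, 23.1 and 18.1 RPKM in A1 to A3 and at 28.8, 55.3 and 59.3 in B1 to B3. Lag3, an inhibitory receptor for MHC class II, was at 17.3, 2.02 and 0.791 RPKM in A and at 0.985, 17.1 and 15.9 in B, a difference of -3.59 in mouse 1, 2.80 in mouse 2 and 3.66 in mouse 3. In both genes A1 was close to B2 and B3, and B1 was close to A2 and A3. Dgkz, a diacylglycerol kinase that limits signalling, moved in the same way at -0.29, 0.75 and 0.70.

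The 14 regulatory T cell genes had medians of -0.99, 1.41 and 1.40 in mice 1, 2 and 3, and 13 of them were opposite in mouse 1. None passed in the 6 libraries (limma, 1 at an unadjusted p under 0.05; 0 by limma-voom), and 13 rose without mouse 1, where 10.2% of all genes did. Ikzf2, the transcription factor Helios, was at 5.02, 0.569 and 0.492 RPKM in A1 to A3 and at 0.444, 6.62 and 5.49 in B1 to B3. Ctla4, an inhibitory receptor that competes with CD28, was at 34.5, 10.1 and 6.72 RPKM in A and at 8.01, 28.3 and 21.0 in B. The highest library of Ctla4 was A1, and the 3 libraries A2, A3 and B1 were the lowest for both genes. Of 14 inhibitory receptors 9 and of 18 follicular helper genes 14 showed the same opposition, Pdcd1 (-1.84, 2.56 and 1.96) and Cd200 (-2.00, 2.03 and 2.03) among them. In neither list did a gene pass (limma, 5 and 3 at an unadjusted p under 0.05; 2 and 1 by limma-voom).

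Several further genes, some of them named because mouse 1 was opposite, are given as a description. Eomes, a T-box factor of cytotoxic and memory cells, was at 7.62, 0.298 and 0.315 RPKM in A1 to A3 and at 0.829, 10.5 and 9.25 in B1 to B3. Myb, a factor of progenitor and memory T cells, was at 58.7, 5.80 and 4.81 RPKM in A and at 6.44, 72.7 and 66.5 in B. For both, A1 lay far over A2 and A3, and B1 as far under B2 and B3. Their 6-library differences, 1.58 for Eomes and 1.37 for Myb, had limma adjusted p of 0.401 and 0.491. Il2rb (-1.73, 2.10 and 2.21), already counted among the regulatory T cell genes above, and Hivep3 (-1.34, 2.20 and 2.02) gave the same order of mice. Eomes is also 1 of 2 natural killer cell markers with a row, of 10. The other, Klrd1, a killer cell lectin receptor, was at 16.4, 16.9 and 17 RPKM in A and at 13.1, 9.18 and 6.70 in B (-0.81 ± 0.20, limma adjusted p 0.0666). All B libraries of Klrd1 were lower than all A libraries, so this marker did not follow Eomes.

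Of 24 naive-state and homing genes, 11 showed the mirror image, lower in B in mice 2 and 3 and higher in mouse 1. Of all genes tested, 13.9% did so. Another 8 of the 24 went the other way, higher in B in mice 2 and 3 and lower in mouse 1, as did 19.3% of all genes. Il7r, the survival receptor for interleukin-7, was at 104, 162 and 162 RPKM in A1 to A3 and at 131, 83.7 and 71.9 in B1 to B3. Igfbp4, an abundant gene of naive T cells, was at 202, 371 and 360.2 RPKM in A and at 394, 213 and 209.6 in B. Here A1 was low with B2 and B3, and B1 was high with A2 and A3. Over the list the median was 0.04, -0.06 and -0.03 in mice 1, 2 and 3, and 0 passed (limma, 4 at an unadjusted p under 0.05; 0 by limma-voom).

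The translation machinery was opposed too, by small steps. Of 80 cytosolic ribosomal protein genes, 71 were lower in B in mice 2 and 3 and higher in B in mouse 1, with medians of 0.16, -0.16 and -0.15 in mice 1, 2 and 3. One gene of the 80 passed, Rpl22l1. The 19 MHC class I presentation genes gave medians of 0.12, -0.03 and -0.01 with 0 calls (limma, 5 at an unadjusted p under 0.05; 0 by limma-voom). B2m, the light chain of MHC class I, read 1050.4, 1118 and 1134 RPKM in A1 to A3 and 1036, 911 and 928 in B1 to B3. The 27 genes of the TCR complex and its proximal signalling had medians of 0.02, 0.04 and 0.09, with 7 of 27 not overlapping and higher in B where 13.4% of all genes were, and 0 passed (limma, 6 at an unadjusted p under 0.05; 0 by limma-voom). Lat, the adaptor that links the TCR to its downstream pathways, was 1 of them at 377, 372 and 354 RPKM in A and 408, 404 and 393 in B (0.13 ± 0.05, limma adjusted p 0.167).

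**Figure D2:**
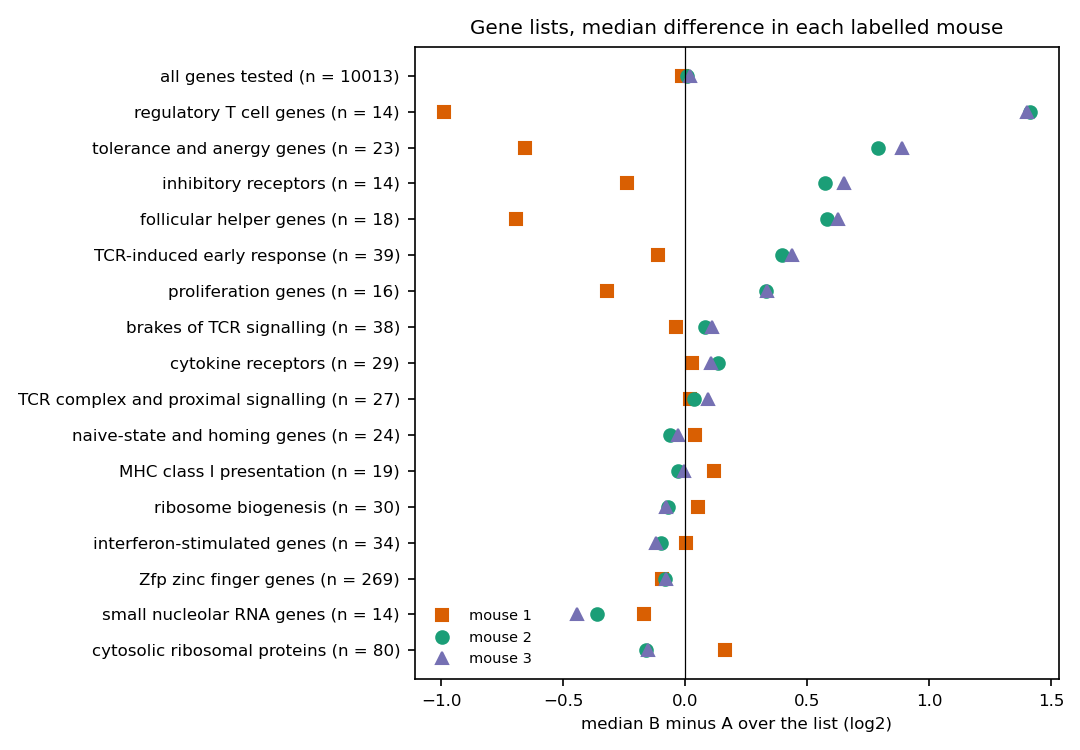
Median log2 difference, B minus A, over the tested members of 16 gene lists and over all genes, drawn separately for mouse 1 (squares), mouse 2 (circles) and mouse 3 (triangles). Mice 2 and 3 nearly coincide, mouse 1 lies on the other side of 0 for the regulatory, tolerance, inhibitory, follicular and ribosomal protein lists, and all 3 lie below 0 for the Zfp and small nucleolar RNA genes.

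Over all 10013 genes, 4241 had the same sign in all 3 mice, and 3321 had 1 sign in mice 2 and 3 and the other in mouse 1. B minus A correlated across the 10013 genes with r = 0.77 between mice 2 and 3, -0.33 between mice 1 and 2 and -0.24 between mice 1 and 3 (descriptions across genes, which are not independent replicates). Of 119 genes whose mean difference in mice 2 and 3 was at least 1 on the log2 scale, 108 were higher in B. In mouse 1, 110 of the 119 had the opposite sign, 63 of them by at least 1, and 6 of the 119 were among the 380 genes called. The first principal component of the 6 libraries, with 54.2% of the variance, put A1 with B2 and B3 and put B1 with A2 and A3. The next, with 20.6%, put all 3 A libraries on 1 side and all 3 B libraries on the other. Its scores were -0.11, -0.03 and -0.05 in A1 to A3 and 0.14, 0.02 and 0.03 in B1 to B3. The mouse 1 libraries thus lay furthest out on it, and those of mice 2 and 3 nearer to 0. Leaving out both mouse 1 libraries raised the calls from 380 to 1896 (18.9% of genes tested), 1019 higher and 877 lower in B, of which 375 were shared with the 380 and 918 had the opposite sign in mouse 1.

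**Figure D3:**
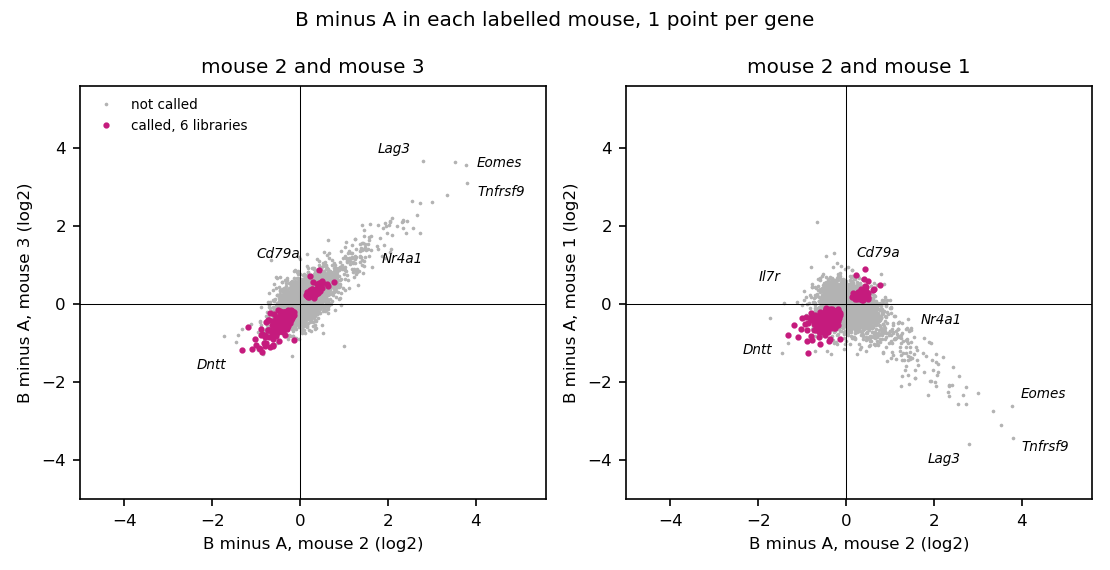
Each point is a gene; the horizontal axis is B minus A in mouse 2 and the vertical axis B minus A in mouse 3 (left) or mouse 1 (right), in log2 units. Genes such as Eomes, Tnfrsf9 and Lag3 lie at the upper right with mouse 3 and at the lower right with mouse 1, while the 380 called genes (coloured) lie in the same quadrants in both panels.

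The Ly6C-negative populations, which share no library with A and B, were set beside them. The red cell genes above leave it uncertain that a number names the same animal in A and B as in C and D, so averages over mice are used. The mean of B minus A in mice 2 and 3 correlated across genes with the mean of D minus C at r = 0.69, and B minus A of mouse 1 at r = -0.58. Nr4a1 was at 26.3, 28.3 and 23.4 RPKM in C1 to C3 and at 58.7, 64.7 and 67.8 in D1 to D3. Eomes was at 0.475, 0.338 and 0.218 RPKM in C and at 9.30, 8.73 and 10.2 in D. No C or D library thus lay on the other population's side for these genes. Dntt was at 14.0, 13.3 and 12.5 RPKM in C and at 5.82, 6.16 and 4.98 in D, and fell by 1.16 from C to D (limma adjusted p 0.00404), where it fell by 1.09 from A to B. Tested directly, the difference between the B minus A and D minus C steps passed for 0 of 10021 genes (limma, 1507 at an unadjusted p under 0.05), and for Dntt it was 0.07 ± 0.17. Without C1 it passed for 261 genes, 26 higher and 235 lower, and no other library left out gave a call. C3 held more RNA of other cells, with B cell markers summing to 249 RPKM and plasma cell markers to 871, against at most 28.5 and 34.3 in the other C and D libraries; its part in the step test was not tested.

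The genes called from all 3 mice followed the base composition of their transcripts. The median GC content of the longest annotated transcript was 40.1% for the genes that fell, 56.7% for those that rose and 49.4% for all genes tested. Of 563 genes between 36% and 40% GC, 132 fell and 0 rose, and of 1304 between 56% and 60%, 28 rose and 0 fell. B minus A correlated with GC content across genes at r = 0.38, 0.31 and 0.37 in mice 1, 2 and 3, and D minus C at 0.01, -0.07 and -0.03. The slope of a library's log2 level per 10 points of GC, relative to the mean of the 6 libraries, was -0.08, -0.08 and -0.11 in A1 to A3 and 0.10, 0.08 and 0.08 in B1 to B3. The slopes of A and B did not overlap. Their difference of 0.17 had an exact two-sided permutation p of 0.1, the smallest that 3 against 3 unpaired libraries allow. This permutation left out the pairing by mouse number. Libraries of C and D had slopes as well, relative to the mean of their own 6 libraries. They were -0.08, 0.04 and 0.06 in C1 to C3 and -0.07, 0.01 and 0.04 in D1 to D3. There the negative slopes went with number 1 in both populations, so they largely cancel in D minus C.

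**Figure D4:**
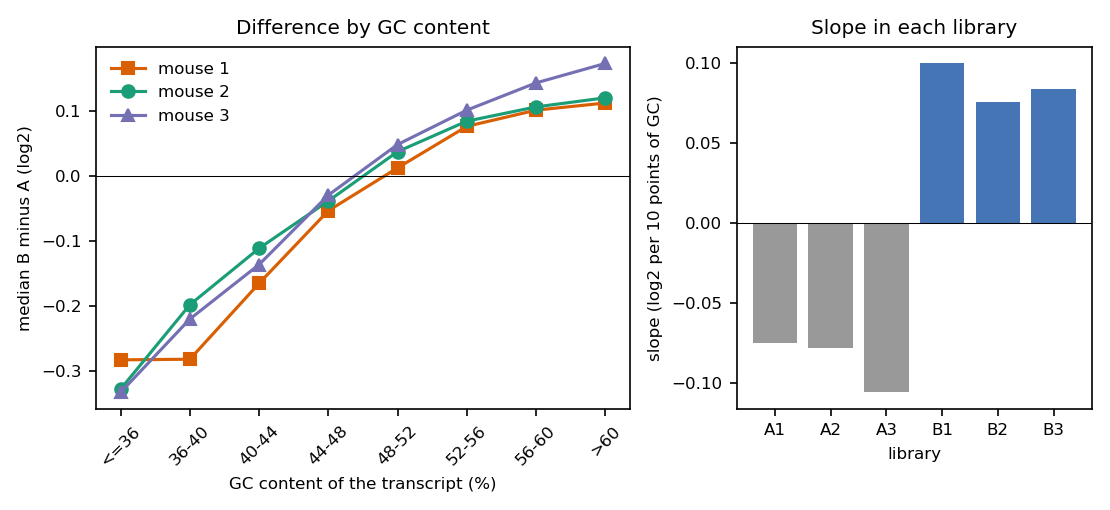
Left, median log2 difference B minus A of genes binned by transcript GC content, 1 line for each mouse; right, slope of each library's log2 level on GC content (bars from 0, log2 per 10 points of GC). All 3 mice rise from about -0.3 in the lowest bin to between 0.11 and 0.17 in the highest, and the 3 A libraries have negative and the 3 B libraries positive slopes.

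With the trend on GC content and transcript length removed from each library, 0 genes passed (limma, 1032 at an unadjusted p under 0.05), and the smallest adjusted p was 0.0814, for Zfp935, Zfp942 and Nktr. Dntt kept a difference of -1.11 ± 0.14 with an adjusted p of 0.0875. Within the bin from 36% to 40% GC, 28 of 61 Zfp genes fell (45.9%) against 104 of 502 other genes (20.7%), and the median differences were -0.45 and -0.22. The gap was smaller from 40% to 44% GC, with 9 of 74 (12.2%) against 129 of 1510 (8.5%) and medians of -0.17 and -0.13. From 44% to 48% it was absent, with 0 of 39 against 24 of 2005 (1.2%) and medians of 0.004 and -0.04. Without mouse 1 and with the trend removed, 1157 genes passed, 558 higher and 599 lower in B, of which 877 were among the 1896. In that fit 6.01% of the genes tested fell and 5.6% rose. Of the 269 Zfp genes, 13 fell and 8 rose, shares under those of all genes, and of the tolerance genes 18 of 23 rose. How much of the calls goes with base composition alone was not tested.

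**Figure D5:**
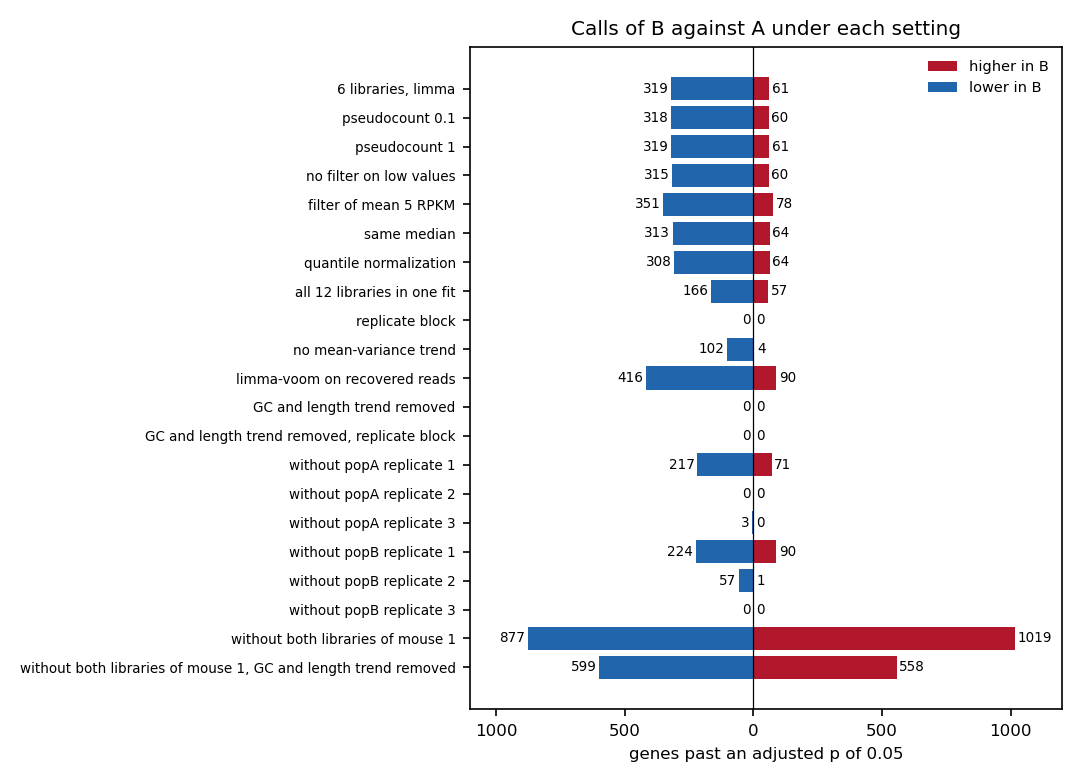
Number of genes past an adjusted p of 0.05 under each way of processing, higher in B to the right and lower in B to the left of 0. The calls number 372 to 506 under other scalings, pseudocounts, filters and a count model, 0 with the mouse as a block or the GC trend removed, and 1896 without the libraries of mouse 1.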

How the data were processed

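RNA from sorted cells was amplified with SMART-seq v4 and made into libraries with NexteraXT, per the labels' protocols. The authors deposited RPKM values of 10073 detected genes, per the file headers. STAR and the builds mm9 and mm10 are named in the submitters' processing notes; for the counting tool, annotation and strand setting, nothing is given in the sources used here. The RPKM steps gave whole read numbers within 0.1 read for 100.0% of the values examined, from which depth was recovered. Listed genes hold 99.63% to 99.67% of reads. Ly6c2 was not analysed here.

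Values were tested as log2(RPKM + 0.5) with limma 3.58.1 in R 4.3.3, keeping genes that averaged 0.5 RPKM or more across A and B, with a mean-variance trend and Benjamini-Hochberg adjustment over all of them. The procedure was run on simulated data with no opposed mouse, no pairing and no GC trend, so that run does not bear on these features. Other pseudocounts, filters, scalings, a count model, the mouse block, GC removal and single libraries left out were tried as alternatives. GC content and length came from GENCODE M21, and tables and figures from Python 3.11.15. The mouse number was taken to pair libraries because the labels give the same animal, although red cell genes were low in A1 and B1 but in C2 and D2, so that it may not hold between A or B and C or D. Deviations of same-numbered libraries correlated at -0.61, -0.29 and -0.20, and those of different number at -0.42 to 0.50. Named genes are sort checks, the 10 largest called differences in each direction, called or abundant members of 30 lists, and genes most opposed in mouse 1. The members and lists were chosen with earlier results of these data known.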

Additional observations from a re-analysis of the deposited data

Results flagged for a closer look

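For 8 named genes every mouse moved one way from A to B and every mouse the other way from C to D. The difference of the 2 steps, B minus A less D minus C, was -1.12 for Zfp758, -1.06 for Zfp994, -1.02 for Zfp433, -0.454 for Rasa2 and -0.367 for Suz12. It was 0.818 for Man2c1os, 0.673 for Naa38 and 0.446 for Kmt2d, a histone methyltransferase gene that did not pass from A to B. In limma's test of this difference over all genes the adjusted p of these 8 lay between 0.168 and 0.201, so none passed. Zfp758 was at 6.96, 5.93 and 4.56 RPKM in C1 to C3 and at 7.71, 6.11 and 4.95 in D1 to D3, so that D was the higher in each mouse, where B was the lower. Of all 10013 genes, 4241 had the same sign from A to B in all 3 mice. Among those 4241, 749 had such opposite steps in all 3 mice and 907 had the same sign in all. All 380 genes called had 1 sign from A to B in all 3 mice, and these numbers were 71 and 74 among them. The 71 of 380 are thus to be read beside the 749 of 4241, not of 10013.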

How the results depend on the processing

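The 380 calls became 223 with all 12 libraries in the fit, 106 without the mean-variance trend, 0 with the replicate block (mouse number), 0 with the GC and length trend removed and 0 with both. They became 1896 without both libraries of mouse 1 and 1157 when the trend was also removed, settings chosen after the data were seen. Leaving out 1 library gave 0 to 314 calls: 0 without A2, 0 without B3, 3 without A3, 58 without B2, 288 without A1 and 314 without B1. The remaining settings gave 372 to 506. The difference of steps kept 0 calls except 261 without C1 (0 to 261 over single libraries). Of 76 named genes, 34 were called and 0 of these reversed in any setting. Of the uncalled, 8 reversed in at least 1. Without mouse 1, and then with the trend also removed, Cd44 was at 0.00691 and 0.0279, Hba-a2 at -0.139 and -0.257, and Hbb-bs at -0.149 and -0.156, and Kmt2d reached -0.047 in the latter. Leaving out single libraries gave -0.147 to 0.99 for Ctla4, -0.372 to 0.00192 for Lrrc75b, -0.38 to 0.0345 for Tspan9, -0.35 to 0.0433 for Stx1a, -0.994 to 1.2 for Hba-a2 and -1.01 to 1.08 for Hbb-bs. The causes were not tested. With 3 libraries a group, differences under about 0.18 on the log2 scale were not called.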
